A study of Mus musculus with 12 samples.

Results

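The genes described are those of the cytosolic ribosomal proteins in the distal colon of female BALB/c mice, measured in a mouse model of colitis-associated colon neoplasia. They were taken as every gene whose symbol starts with Rpl or Rps and a number, or is Rplp0, Rplp1, Rplp2 or Rpsa, leaving out the ribosomal S6 kinases and pseudogene symbols. The rule found 84 genes, with 122 probes, among 18539 genes with a symbol on the array, and 82 of them could be tested. The 82 are 43 large-subunit genes, 30 small-subunit genes, the 3 genes of the P stalk and 6 paralogs or like-named genes. Rpl39l and Rpl3l, paralogs of Rpl39 and Rpl3, were left untested, because each was well above background on 1 array in all.

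There were 4 groups of 3 one-colour arrays, all from mice that were 5 to 7 weeks old as the labels give it, with tissue taken on day 100. The AOM/DSS group had 1 intraperitoneal injection of azoxymethane (AOM), a colon carcinogen, at 12.5 mg/kg on day 1, and drank dextran sulfate sodium (DSS), which injures the colon lining, for 5 days of every 21 over 3 cycles from day 5. The AOM group had weekly injections of 10 mg/kg, 6 in all, and no DSS. The DSS group had the same 3 DSS cycles and no AOM, and the control group had neither agent. The AOM dose and number of injections therefore differed between the AOM/DSS and AOM groups. The AOM/DSS samples were neoplasms clipped out and kept in an RNA storage solution, whereas the other samples were scraped epithelium kept in Trizol, so neoplasia and way of collection cannot be told apart. The labels do not say whether replicates came from separate mice, so p-values measure the spread between these samples.

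Each ribosome joins a small subunit, which decodes the mRNA, to a large subunit, which forms the peptide bond. Its proteins are made in matched amounts, and in vertebrates their mRNAs begin with a C followed by a run of pyrimidines, the terminal oligopyrimidine or TOP tract, through which mTOR signalling sets how actively they are translated. In the colon, fast renewal of the crypt epithelium makes ribosome production a large part of what dividing cells do.

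RefSeq windows of 300 bases on GRCm38.p6, 250 before the annotated start and 50 from it, were matched by symbol for 64 of the 84 genes, as 76 windows. A C at the annotated start followed by at least 4 bases that are each C or T, on the transcribed strand, was present in 13 of the 76 windows (17.1%), against 2.51% of the 32851 windows of all genes. Annotated starts can lie some bases from the true start, and a window without the tract says only that these letters are not at that base. The windows shown run from 30 bases before the start to the 30th base from it, with the tract in capitals. The first 4 are genes with a tract, of which Rps10 and Rpl15 were higher after AOM. Rpl4 and the 3 like-named genes after it, which are named again among the results, have none. Rps27l and Rps19bp1 were also higher after AOM.
Rps10, chr17:27635215-27635274, minus strand: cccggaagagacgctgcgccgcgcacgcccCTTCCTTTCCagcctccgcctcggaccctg
Rpl15, chr14:18270957-18271016, minus strand: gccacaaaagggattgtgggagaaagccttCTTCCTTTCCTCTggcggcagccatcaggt
Rps6, chr4:86857338-86857397, minus strand: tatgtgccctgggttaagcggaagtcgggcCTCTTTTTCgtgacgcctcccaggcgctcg
Rpl35, chr2:39005102-39005161, minus strand: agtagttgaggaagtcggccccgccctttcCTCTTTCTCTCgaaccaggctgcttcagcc
Rpl4, chr9:64173357-64173416, plus strand: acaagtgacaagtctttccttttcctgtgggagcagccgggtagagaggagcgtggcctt
Rps27l, chr9:66946056-66946115, plus strand: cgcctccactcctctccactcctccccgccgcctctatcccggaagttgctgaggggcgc
Rps19bp1, chr15:80264277-80264336, minus strand: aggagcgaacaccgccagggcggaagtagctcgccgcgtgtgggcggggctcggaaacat
Rpl7l1, chr17:46782627-46782686, minus strand: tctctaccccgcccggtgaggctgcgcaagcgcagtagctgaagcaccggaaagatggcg

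Levels are log2 intensities minus the 75th percentile of their own array, so that a level of 0 is a probe at that percentile. The arrays differed in that percentile: it lay at an intensity of 1115 to 1186 on the AOM/DSS arrays and of 394 to 694 on the other 9. The 99th percentile lay 5.34 to 5.61 above the 75th (log2) on the AOM/DSS arrays, against 5.71 to 6.29 on the others, so the brightest probes sat closer to the scaling point in AOM/DSS. Ribosomal protein probes are among the brightest: 64 of the 82 were read from the low-gain scan on all 12 arrays, and no probe was saturated. For the family's counts in AOM/DSS against each other group, and in AOM against control, the count is therefore also given after quantile normalization, which gives every array the same distribution of intensities. A call is an adjusted p under 0.05 from limma, with Benjamini-Hochberg adjustment over 19143 genes. Some of these genes have many processed pseudogenes (RefSeq lists 318 for the family), and how far probes also bind their transcripts was not tested.

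The median ribosomal protein gene was lower in AOM/DSS than in every other group by 75th percentile scaling, and higher after quantile normalization, in the authors' deposited values and after spike-in scaling. Its scaled level was 6.78, 6.80 and 6.94 on the AOM/DSS arrays, 7.79, 7.29 and 7.28 on the AOM arrays, 6.98, 7.35 and 7.49 on the DSS arrays, and 6.97, 7.23 and 7.19 on the control arrays. All 3 AOM/DSS arrays lay below the other 9, and AOM replicate 1 was the highest. After quantile normalization the same medians were 16.80, 16.74 and 16.70 in AOM/DSS, 16.66, 16.59 and 16.65 in AOM, 16.52, 16.41 and 16.42 in DSS, and 16.13, 16.40 and 16.51 in control. On that scale the AOM/DSS arrays were the highest, as they were before any scaling. By spike-in scaling the family's median difference was 1.21 for AOM/DSS against control, 0.50 against AOM and 0.93 against DSS. The medians over all genes were larger there, at 1.52, 1.19 and 1.48, so the family rose less than genes in general. Which of these scalings follows the RNA of the tissue was not tested.

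**Figure D1:**
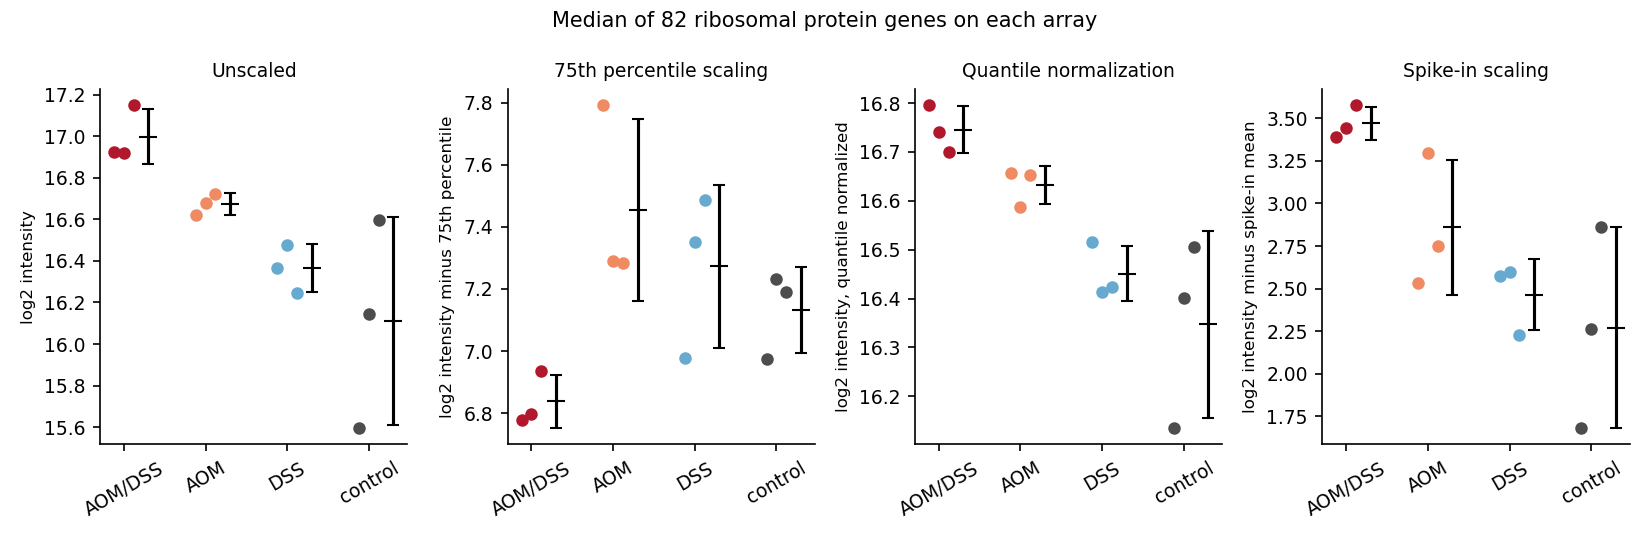
Median log2 intensity of 82 ribosomal protein genes on each of the 12 arrays, unscaled and under 3 scalings, with points for arrays and bars for mean ± SD (n = 3 arrays per group). AOM/DSS arrays are the lowest after 75th percentile scaling and the highest after quantile normalization and after scaling to spike-in probes.

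The comparison of AOM with control asked what the carcinogen given alone did. 12 of the 82 genes rose and none fell, with a median difference of 0.33 (log2), against -0.01 over all genes tested. This is 14.6% of the family, where 32.4% of all genes were called in this comparison and 14.7% were called higher. After quantile normalization 19 rose and none fell, with a median of 0.33 and 33% of all genes called. Among the 12 were Rpsa, Rps19bp1, Rpl13a, Rps10, Rpl8, Rpl18, Rpl15, Rpl29, Rps3, Rps27l and Rpl3. They include genes of both subunits and the like-named Rps19bp1 and Rps27l. 8 of them were also called higher by median, 99th percentile and quantile scaling and in the authors' deposited values, and 7 of these are shown by array in the plot of genes higher after AOM.

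Rpsa, a small-subunit protein also known as the laminin receptor, had levels of 6.68, 6.22 and 5.96 in AOM and 5.13, 5.41 and 5.29 in control. The groups did not overlap, and the difference was 1.01 ± 0.26 (log2, SE; 2.01-fold; adjusted p = 0.0196, limma, n = 3 each). Its second probe differed by 0.92, with an adjusted p of 0.0686.

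Rps19bp1 matches the rule by its symbol but encodes a protein that binds Rps19 and is no ribosomal subunit. Its levels were 3.35, 3.29 and 3.41 in AOM and 2.42, 2.46 and 2.31 in control, with a difference of 0.95 ± 0.22 (SE; adjusted p = 0.0132, limma) and no overlap. It was 1 of the 2 genes also called higher in AOM/DSS.

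Rpl13a, a large-subunit protein that also takes part in translational silencing of inflammatory mRNAs, had levels of 8.20, 7.46 and 7.50 in AOM and 6.63, 6.90 and 6.98 in control. AOM replicate 1 was the highest array, and all 3 AOM arrays lay above control (difference 0.88 ± 0.25, adjusted p = 0.0266, limma). Rps10, a small-subunit protein at the mRNA entry side, differed by 0.83 ± 0.25, and Rpl8, part of the peptidyl transferase centre, by 0.80 ± 0.26. Rpl15 and Rpl29 differed by 0.78 and 0.73, and each separated the groups. For Rpl29 that is the largest difference among its 4 probes, and the smallest was 0.23 (adjusted p = 0.522, limma). None of the other 70 genes passed; Rpl7 was at -0.52 (adjusted p = 0.0721).

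The calls in AOM rest on few arrays. The count higher was 1 without AOM replicate 1 (26.4% of all genes called), 1 without AOM replicate 2 (10.6%), 1 without control replicate 1 (12.5%) and 2 without control replicate 2 (14.6%). No slide holds arrays of both groups, and with slide as a block none of the 82 was called by limma (median 0.55; 0.0209% of all genes called).

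**Figure D2:**
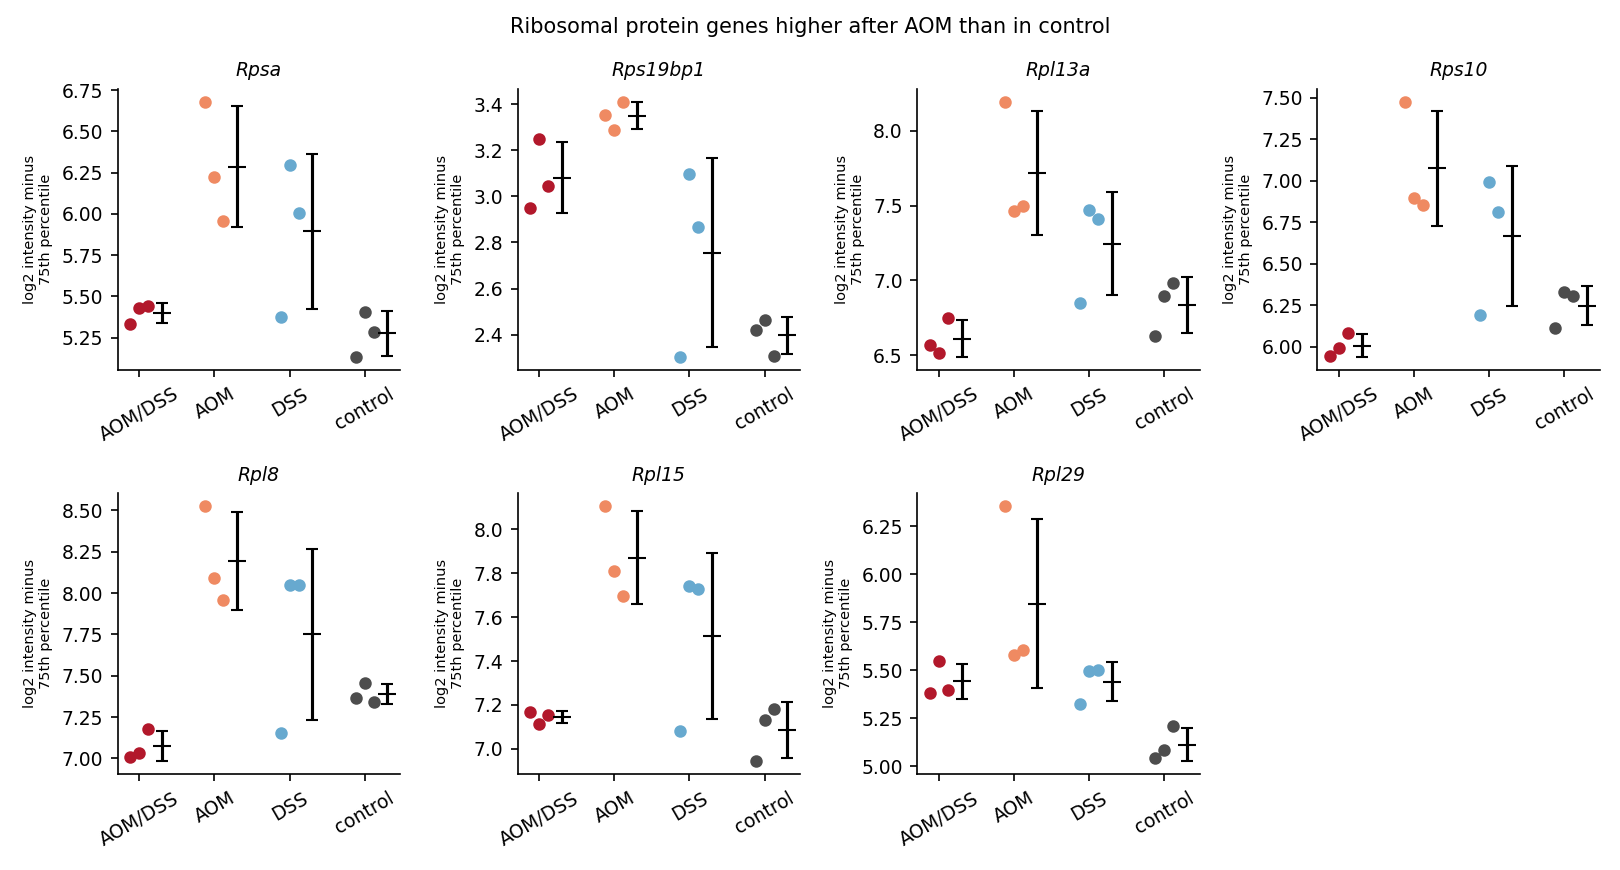
Levels (log2 intensity minus the array's 75th percentile) of 7 ribosomal protein genes on all 12 arrays, with points for arrays and bars for mean ± SD (n = 3 per group). All 3 AOM arrays lie above all 3 control arrays for each gene, and replicate 1 is the lowest DSS array for each.

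The comparison of AOM/DSS with control asked how neoplasms differ from untreated epithelium. By 75th percentile scaling 2 genes rose and 14 fell, with a median of -0.29 against 0.03 over all genes. The share called was 19.5%, where 34.6% of all genes were called, 17.2% higher and 17.4% lower. After quantile normalization 28 rose and 2 fell (median 0.44; 36.8% of all genes called), so the direction of the family as a whole depends on the scaling. 14 of the 82 kept 1 sign under the 75th percentile, median, 99th percentile, quantile and deposited values. With scaling to the 4 spike-in probes 66 rose and none fell (median 1.21, against 1.52 over all genes, with 67.6% of all genes called).

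Rps4l and Rpl21 were called lower by 75th percentile, median, 99th percentile and quantile scaling and in the deposited values. With slide as a block, where AOM/DSS and control share 1 slide, neither was called (Rps4l at -2.24, adjusted p = 0.157; Rpl21 at -0.85, adjusted p = 0.279, limma). By spike-in scaling Rps4l was at -1.22 and was not called (adjusted p = 0.0546). Rps4l, a paralog of Rps4x, had levels of -3.79, -2.85 and -2.61 in AOM/DSS, 0.23, -0.01 and 0.73 in AOM, -2.69, -1.70 and -0.45 in DSS and 0.84, -0.68 and -1.30 in control. It was 6.53-fold lower in AOM/DSS than in control (log2 difference -2.71 ± 0.63, adjusted p = 0.00820, limma) and was well above background on all 12 arrays. Rps4x, its parent gene, had levels of 6.68, 6.78 and 7.00 in AOM/DSS and 7.42, 7.49 and 7.36 in control, with a difference of -0.60 (adjusted p = 0.0190) by 75th percentile scaling and 0.10 (adjusted p = 0.704) after quantile normalization.

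Markers of several cell types moved in the same comparison. Of the 6 B and plasma cell markers tested, 3 fell (4 after quantile normalization), where 17.4% of all genes were called lower. Their mean level was -2.06 to -0.20 in AOM/DSS, 0.75 to 4.12 in AOM, 2.97 to 3.70 in DSS and 0.16 to 2.43 in control. Epithelial and exocrine pancreas markers fell too, 6 of 8 each (2 and 6 after quantile normalization). Those that rose were 4 of 4 neutrophil, 3 of 4 macrophage, 4 of 6 fibroblast and 1 of 5 endothelial markers. In this comparison 17.2% of all genes were called higher, which the endothelial share is near. The part of any of these cells in the Rps4l values was not tested. In bulk samples, fewer cells of a type and less RNA per cell cannot be told apart.

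Rpl21, a large-subunit protein, had levels of 1.55, 1.44 and 2.21 in AOM/DSS and 3.34, 3.16 and 2.68 in control, a difference of -1.33 ± 0.36 (adjusted p = 0.0166, limma) that left no overlap. Its other probe differed by -0.30 and was not called (adjusted p = 0.341), so the fall rests on 1 probe. By spike-in scaling Rpl21 differed by 0.17 (adjusted p = 0.706).

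Both genes called higher are like-named ones. Neither has the tract at its annotated start, which only 13 of the 64 genes with a window have (20.3%). Rpl7l1, a paralog of Rpl7, had levels of 1.47, 1.38 and 1.45 in AOM/DSS and 0.62, 0.67 and 0.65 in control (difference 0.79 ± 0.26, adjusted p = 0.0354, limma; 0.91 after quantile normalization). Rps19bp1 had levels of 2.95, 3.25 and 3.05 in AOM/DSS and 2.42, 2.46 and 2.31 in control (difference 0.68, adjusted p = 0.0331, limma; 0.96 after quantile normalization). Both separated the groups on every array. By median scaling neither was called, nor with slide as a block (adjusted p = 0.211 and 0.244, limma). With AOM/DSS replicate 1, 2 or 3 left out, no gene of the family was called higher (24.4%, 26.1% and 26.6% of all genes called). The same held without control replicate 1 (22.7%) or control replicate 2 (26.8%).

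The P stalk is the part of the large subunit that binds the translation factors. Rplp1 had levels of 7.88, 7.97 and 8.03 in AOM/DSS and 9.19, 9.15 and 8.69 in control (difference -1.05 ± 0.24, adjusted p = 0.00801, limma). Rplp0 differed by -0.98 (adjusted p = 0.00960) and Rplp2 by -0.70 (adjusted p = 0.0536). After quantile normalization the 3 differences were 0.02, 0.08 and 0.20, and none was called. The second probe of Rplp0 differed by -0.08.

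Rps27, a small-subunit zinc-finger protein, was at 7.26, 7.29 and 7.19 in AOM/DSS and 8.42, 8.22 and 8.10 in control, with a difference of -0.998 (adjusted p = 0.0158) that was -0.18 (adjusted p = 0.408) after quantile normalization. Its paralog Rps27l, a p53-responsive gene, was at 5.74, 5.53 and 5.88 in AOM/DSS and 5.69, 5.83 and 5.51 in control, with groups that overlap.

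The differences followed the brightness of the probe. Across the 82 genes, the Spearman correlation between the AOM/DSS minus control difference and the mean unscaled intensity was -0.62 by 75th percentile scaling and -0.25 after quantile normalization, and these points share arrays. For AOM against control it was -0.17 and -0.10.

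**Figure D3:**
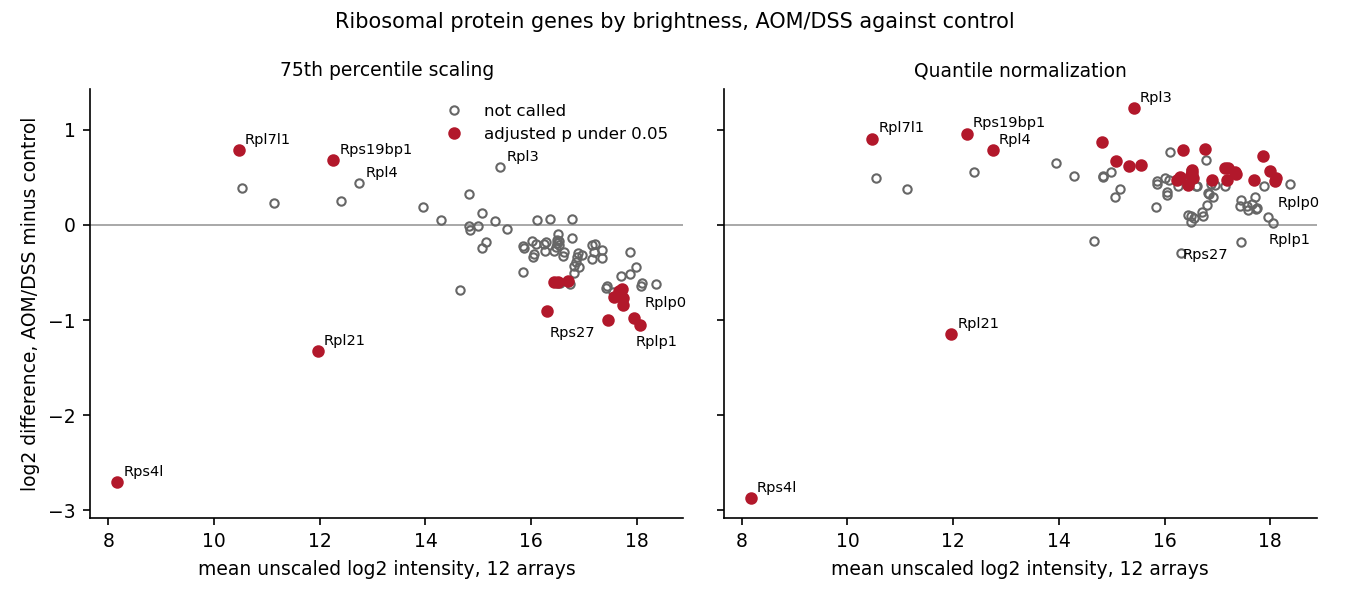
Log2 difference of AOM/DSS minus control for 82 ribosomal protein genes against mean unscaled log2 intensity over 12 arrays, after 75th percentile scaling (left) and quantile normalization (right), with filled points for adjusted p under 0.05. The brightest genes lie below 0 on the left and mostly above 0 on the right, whereas Rps4l and Rpl21 lie below 0 and Rpl7l1 and Rps19bp1 above 0 in both.

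The comparison of AOM/DSS with AOM asked how the neoplasms differ from epithelium given the carcinogen alone. 48 of the 82 genes fell and none rose by 75th percentile scaling (58.5%, with 37% of all genes called and 17.5% called lower; median -0.73 against -0.04). After quantile normalization 6 rose and 1 fell (median 0.07; 34.1% of all genes called). The gene called lower in both was Rps4l, 10.6-fold lower in AOM/DSS (log2 difference -3.40 ± 0.63, adjusted p = 0.00550, limma), with no overlap and the same call under all 9 other scalings, corrections and blocks tried for it, where its adjusted p was 0.00377 to 0.0355. Of the 6 B and plasma cell markers, 5 fell in the same comparison, where 17.5% of all genes were called lower. So did 5 of 8 epithelial markers (2 after quantile normalization) and 4 of 5 smooth muscle markers (3 after quantile normalization). For T cell and exocrine pancreas markers 1 of 6 and 1 of 8 fell, shares not above that of all genes. Of 4 neutrophil markers 2 rose, where 19.5% of all genes were called higher.

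The other large falls did not hold across scalings. Rps27 differed by -1.23, Rpl8 by -1.12, Rpl13a by -1.11 and Rpl36 by -1.10, with adjusted p from 0.00936 to 0.0128, and after quantile normalization by -0.44, -0.34, -0.37 and -0.35, with adjusted p from 0.0590 to 0.142. The count of genes called lower was 9 without AOM/DSS replicate 1 (17.4% of all genes called), 14 without AOM replicate 1 (23.3%) and 19 without AOM/DSS replicate 2 (22.7%). On the slide that holds 2 arrays of each group 3 genes fell (median -0.84; 20.5% of all genes called).

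The comparison of AOM/DSS with DSS asked how the neoplasms differ from epithelium after repeated colitis alone. 1 gene rose and 22 fell by 75th percentile scaling (28.0%, with 35.7% of all genes called, 17.5% higher and 18.2% lower; median -0.51 against 0.04). After quantile normalization 10 rose and 1 fell (median 0.26; 35.8% of all genes called). Rpl4, a large-subunit protein lining the exit tunnel, was the gene that rose: 3.73, 3.63 and 3.85 in AOM/DSS against 3.15, 3.21 and 3.22 in DSS (difference 0.54 ± 0.18, adjusted p = 0.0385, limma, and 0.94 after quantile normalization). With slide as a block Rpl4 was not called (0.76, adjusted p = 0.223, limma), and by median scaling no gene of the family rose. With AOM/DSS replicate 1, 2 or 3 left out, none rose either (20.2%, 23.1% and 25.5% of all genes called). Rpl21 was lower by 75th percentile scaling and after quantile normalization, at 1.55, 1.44 and 2.21 in AOM/DSS against 2.28, 3.25 and 3.53 in DSS (difference -1.29, adjusted p = 0.0206, limma). Its other probe was at -0.00286 (adjusted p = 0.993), and by 99th percentile scaling the call was lost (-0.69, adjusted p = 0.0583). The count called lower was 50 without DSS replicate 1 (46.7% of all genes called) and 1 without DSS replicate 3 (17.4%).

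DSS alone gave no call. None of the 82 genes passed against control (median 0.18; 0.381% of all genes called), and 1 had an unadjusted p under 0.05, Rpsa, at 5.38, 6.30 and 6.004 in DSS (difference 0.62, adjusted p = 0.217). None passed in DSS against AOM (median -0.17; 0.0104% of all genes called), where 2 had an unadjusted p under 0.05. DSS replicate 1 stood below the other 2 DSS arrays for each of the 7 genes plotted as higher after AOM; without it 5 genes were called higher than in control (median 0.36; 16.9% of all genes called).

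Taking the 4 groups at once, the F test called 32 of the 82 genes (39.0%), where it called 52.5% of all genes. Setting AOM/DSS against the sum of the 2 single treatments, 39 genes were called below the sum by limma, where 15.7% of all genes were called lower. After quantile normalization 6 were called above the sum and 4 below it. With spike-in scaling 2 were above and 0 below, and with slide as a block none was called.

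Scaling each array to the median of the 82 genes removes a shift that all of them share, but not a difference that follows the brightness of the probe. In AOM/DSS against control 5 genes rose relative to the median gene (Rpl7l1, Rps19bp1, Rpl3, Rpl4 and Rpl29) and 5 fell (Rps4l, Rpl21, Rplp1, Rps27 and Rplp0), with 31.9% of all genes called. Rpl3, a large-subunit protein of the peptidyl transferase centre, was higher by 0.90 (adjusted p = 0.0136, limma) and Rpl4 by 0.73 (adjusted p = 0.0370). In AOM/DSS against AOM 7 rose (Rpl27a, Rpl4, Rpl7, Rps3a1, Rpl36al, Rpl5 and Rpl23) and Rps4l fell (37.8% of all genes called).

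Rpl7, a large-subunit protein, had levels of 7.49, 7.59 and 7.52 in AOM/DSS, 7.13, 7.06 and 7.24 in AOM, 7.55, 6.90 and 7.48 in DSS and 7.50, 7.70 and 7.79 in control. Relative to the median gene it was higher in AOM/DSS than in AOM by 1.00 (adjusted p = 0.0173) and lower in AOM than in control by 0.85 on the same scale, written -0.85 as AOM minus control (adjusted p = 0.0431). Rpl5, which carries 5S RNA and can bind Mdm2, was higher in AOM/DSS than in AOM by 0.78 (adjusted p = 0.0244). In AOM against control Rpsa and Rpl13a rose relative to the median gene and Rpl7, Rps24, Rpl23, Rpl17 and Rpl9 fell (29% of all genes called).

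**Figure D4:**
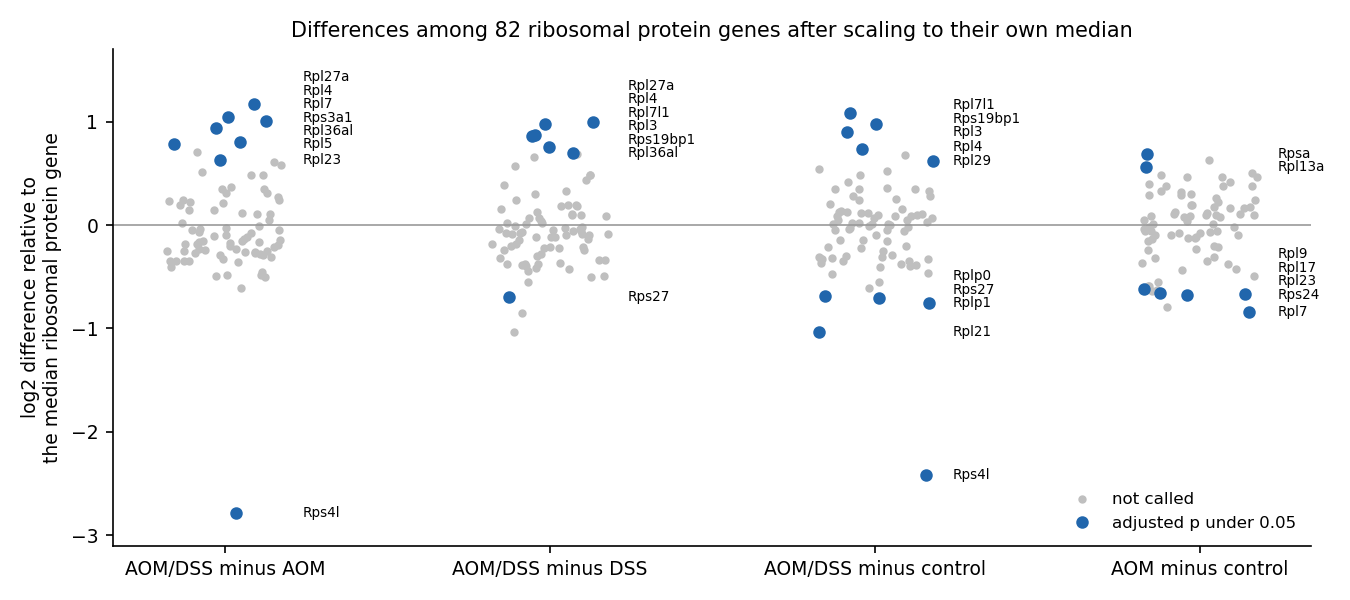
Log2 difference of each of 82 ribosomal protein genes relative to the median of the family in 4 comparisons, with blue points and names for adjusted p under 0.05. Rps4l lies farthest below the family in both AOM/DSS minus AOM and AOM/DSS minus control, and Rpl4 lies above it in the 3 comparisons of AOM/DSS.

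Rpl36al, a paralog of Rpl36a, had levels of 4.67, 4.63 and 4.93 in AOM/DSS and 4.07, 4.72 and 4.86 in control, which overlap (difference 0.19, 95% interval -0.32 to 0.71). Rpl22l1, a paralog of Rpl22, differed by -0.01 (95% interval -0.55 to 0.52). Rps27l was higher after AOM than in control by 0.70 (adjusted p = 0.0474).

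**Figure D5:**
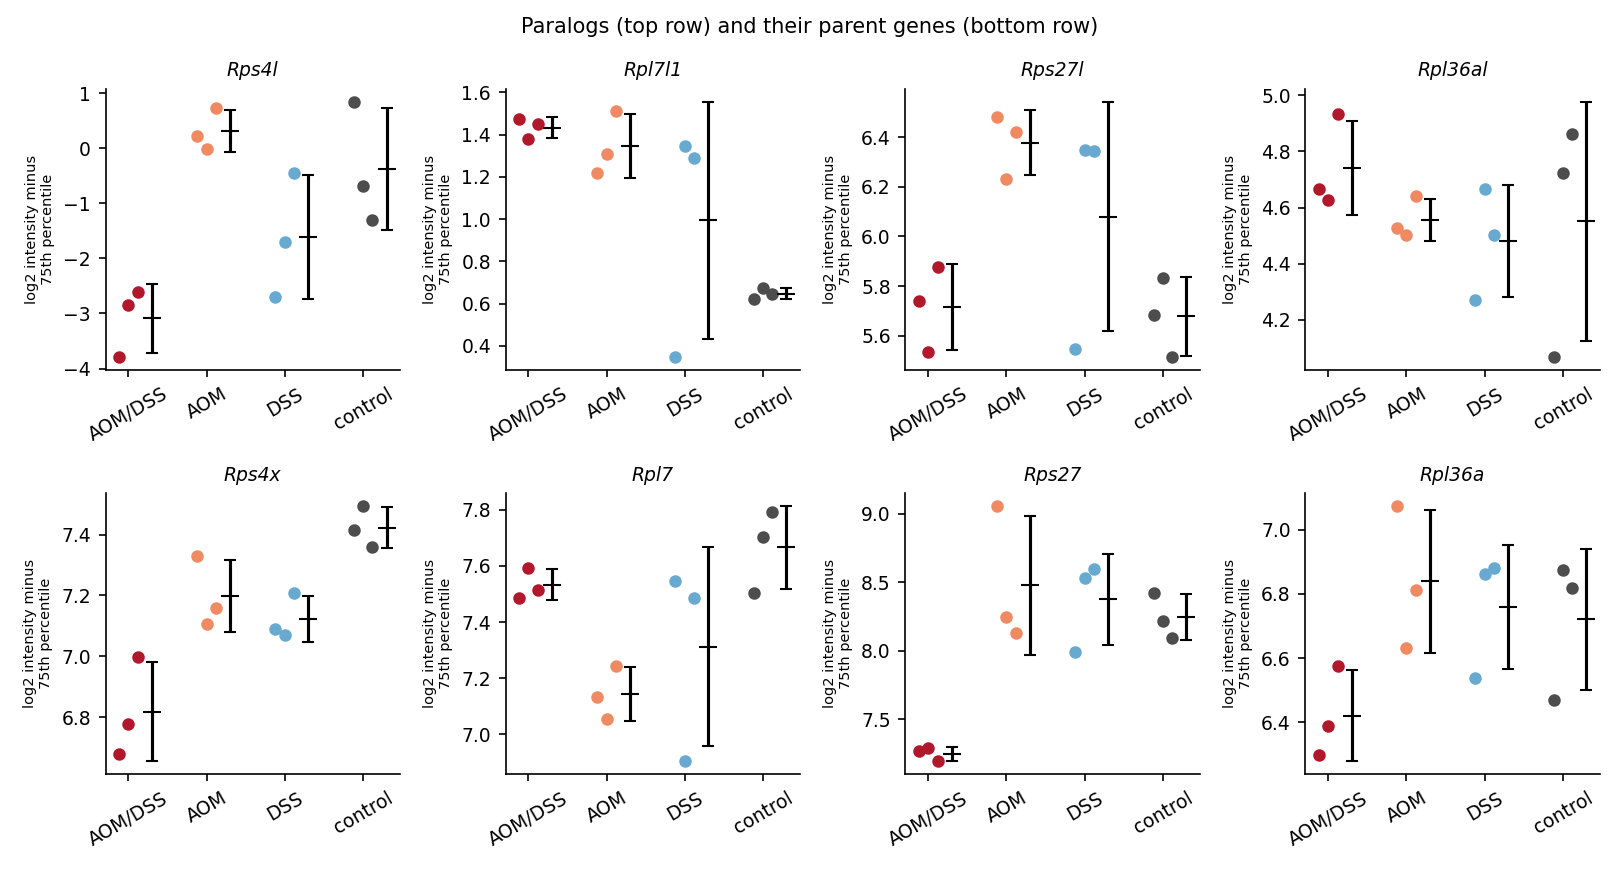
Levels (log2 intensity minus the array's 75th percentile) of 4 paralogs (top row) and their parent genes (bottom row) on 12 arrays, with points for arrays and bars for mean ± SD (n = 3 per group). Rps4l is below all AOM and control arrays on all 3 AOM/DSS arrays but overlaps with DSS, and Rpl7l1 is above control on all 3 AOM/DSS arrays while Rpl7 is not.

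Fau and Rack1, ribosomal proteins whose symbols fall outside the rule, both fell in AOM/DSS by 75th percentile scaling. Fau, which encodes Rps30 as a fusion, differed by -1.02 and Rack1 by -0.71 in AOM/DSS against control (adjusted p = 0.0161 and 0.0382, limma). After quantile normalization they differed by 0.06 and 0.22 and neither was called. Neither was called in AOM against control.

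Of 28 ribosome biogenesis genes, 18 rose, none fell and 10 did not pass in AOM/DSS against control (median 1.05), where 17.2% of all genes were called higher, and 21 rose after quantile normalization. Gnl3, nucleostemin, was higher by 2.57 ± 0.42 (adjusted p = 0.00133, limma) and Wdr12, of the PeBoW complex, by 1.61. In AOM against control 15 rose, 1 fell and 12 did not pass (median 0.83), where 14.7% of all genes were called higher, and the counts were the same after quantile normalization. The rise was led by Rrp9 at 1.63 and Nob1 at 1.49. None of the 28 passed in DSS against control, where only 0.381% of all genes were called. Of 6 elongation factor genes 4 rose in AOM against control, Eef2 by 0.87 among them, and of 78 mitochondrial ribosomal protein genes 17 rose and 1 fell there (median 0.38; 19 and 1 after quantile normalization), against the same 14.7% of all genes.

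Cell markers differed between the groups as well. In AOM/DSS against control 6 of 8 epithelial markers fell (median -1.08; 2 fell after quantile normalization, median -0.40), and all 4 neutrophil markers rose (median 6.35), where 17.4% of all genes were called lower and 17.2% higher. In AOM against control all 4 neutrophil and all 4 macrophage markers rose, where 14.7% of all genes were called higher, and no epithelial marker passed. Exocrine pancreas markers had a mean level of -5.07 to -4.33 in AOM/DSS, -4.09 to -4.06 in AOM, -3.33 to 3.59 in DSS and -1.17 to 6.24 in control. The part of these cells in the ribosomal protein values was not tested.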

How the data were processed

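RNA from distal colon was hybridised to one-colour Agilent arrays (12 arrays, 45018 spots, 41174 non-control probes). The deposited scanner files hold the intensity of each spot as Agilent's processed signal, with background and spatial trend removed, per the file headers. Agilent Feature Extraction is named as version 10.7 in the submitters' processing notes, and the headers give 10.7.3.1. The authors' deposited value table holds log2 values, whose 12 columns share a median of 6.17 and the same sorted values to within 0.000945, as quantile normalization gives; its columns correlate with the log2 intensities at 0.995 to 1.00. No sample column was left unused.

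Genes were named through RefSeq accessions (27198 of 41174 probes). The brightest probe stood for a gene. Intensities were put on the log2 scale and centred on each array's 75th percentile, and genes not well above background on all arrays of any group were left out, leaving 19143. limma 3.58.1 in R 4.3.3 (lmFit, eBayes, 1 mean per group, all 12 arrays) gave differences, with Benjamini-Hochberg adjustment and a threshold of 0.05; the scripts were tested on simulated data. The number of arrays limits the precision.

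Alternatives were normexp background correction (offset 50), other scalings, filters, probe summaries, slide and replicate blocks, array weights and leaving out each array. The 99th percentile, spike-in (4 probes) and own-median scalings were chosen after seeing the data. Named genes are, per comparison, the 5 called genes with the largest rise and the 5 with the largest fall, the paralogs with their parent genes, the P stalk, Rpsa, undetected members and up to 3 genes per companion list; genes called relative to the family's median were named after their values were seen. Values of some genes that the rule names are not reported here. The members and gene lists were chosen with earlier results of these data known. Slides, per the file headers, hold AOM/DSS 1 and 2 with AOM 1 and 2, AOM 3 with all DSS arrays, and AOM/DSS 3 with all control arrays.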

Additional observations from a re-analysis of the deposited data

Results flagged for a closer look

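The effect of giving both agents was set against the sum of the effects of each alone (AOM/DSS minus AOM minus DSS plus control), and 39 of the 82 ribosomal protein genes departed from that sum, all lower, where 35.3% of all genes were called by limma. Among the largest departures were Rpl13a at -1.52, Rpsa at -1.50, Rps10 at -1.49 and Rpl8 at -1.48 (log2). After quantile normalization 6 genes were called above the sum and 4 below it, with a median of -0.11 and 6334 of all 19143 genes called. With spike-in scaling 2 were above and none below, with a median of 0.27 and 5558 of all genes called. With slide as a block none was called, but only 2 of all genes were. The count lower was 5 without DSS replicate 2 (3672 of all 19193 genes called either way) and 5 without DSS replicate 3 (3911 of 19274). It was 54 without DSS replicate 1 (8831 of 19194), so the count for all genes moved as well. The AOM dose differed between the AOM/DSS and AOM groups, so the sum does not set equal doses side by side.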

How the results depend on the processing

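The direction of the family after AOM/DSS depends on the scaling. Its median in AOM against control was above 0 under every setting tried other than scaling to the family's own median. That scaling holds the median near 0, so it cannot test the sign. In the main results 14.6% of the family was called higher after AOM, near the 14.7% of all genes. AOM and control share no slide, and with slide as a block no gene of the family was called there. Counts are genes called higher and lower, for AOM/DSS against control, AOM against control, AOM/DSS against AOM and AOM/DSS against DSS in that order. Each is followed by the family's median and the share of all genes called in either direction. Quantile normalization gave 28 and 2 (0.44, 36.8%), 19 and 0 (0.33, 33%), 6 and 1 (0.0651, 34.1%) and 10 and 1 (0.26, 35.8%). The authors' deposited values gave 31 and 2 (0.45, 36.8%), 19 and 0 (0.35, 33%), 7 and 1 (0.0617, 34.1%) and 10 and 1 (0.27, 35.8%). Scaling to the 99th percentile gave 10 and 2 (0.30, 42.9%), 15 and 0 (0.33, 24.9%), 7 and 3 (-0.14, 39.1%) and 8 and 0 (0.0925, 44%). Spike-in scaling gave 66 and 0 (1.21, 67.6%), 0 and 0 (0.60, 4.58%), 14 and 1 (0.50, 49.5%) and 45 and 0 (0.93, 66.1%), with a median of -0.38 in DSS against AOM. Median scaling gave 0 and 16 (-0.44, 30.6%), 8 and 0 (0.50, 29.5%), 0 and 59 (-1.05, 39.4%) and 0 and 25 (-0.73, 33.2%). Normexp gave 2 and 1 (0.36, 14.4%), 6 and 0 (0.86, 9.73%), 0 and 1 (-0.67, 6.61%) and 0 and 0 (-0.0422, 9.92%), with a median of -0.56 in DSS against AOM. Slide as a block gave 0 and 1 (-0.26, 11.6%), 0 and 0 (0.55, 0.0209%), 0 and 9 (-0.84, 14.9%) and 0 and 0 (-0.79, 2.3%), with a median of 0.50 in DSS against control. Array weights gave 4 and 31 (-0.32, 48.7%), 18 and 6 (0.19, 54.3%), 4 and 56 (-0.62, 57.4%) and 2 and 59 (-0.67, 58.5%), with 4 higher in DSS against control (24.5% of all genes called) and a median of 0.0763 in DSS against AOM. Scaling to the family's median gave 5 and 5 (31.9% of all genes called), 2 and 5 (29%), 7 and 1 (37.8%) and 6 and 1 (34.3%). Without a filter 6 genes were higher after AOM (16% of all genes called), and with the mean of a gene's probes 1 was lower there (32.7%) and 2 were higher in AOM/DSS against AOM (37.1%). Within single slides AOM/DSS against control gave 0 and 0 (3.04% of all genes called), and AOM/DSS against AOM gave 0 and 3 (20.5%). The cause of these shifts was not tested.

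A difference among any of the groups was called for 32 of 82 genes by the F test (52.5% of all genes called), and for 2 with normexp, 2 with slide as a block, 16 with the replicate block, 65 with array weights, 16 at the 99th percentile and 8 relative to the family's median. The share of all genes is not given for these other F tests. The pairwise shares of all genes also moved with these settings, so the counts are not a result about the family alone. Replicate numbers do not pair the arrays: deviations of same-numbered arrays correlated at -0.27 to 0.25, and 4 of 12 arrays correlated best with their own number. The replicate block gave 2 and 9 (32.4% of all genes called), 6 and 0 (31.8%), 0 and 38 (35.6%) and 1 and 13 (34.1%).

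Named genes that turned sign were, under quantile normalization and in the deposited values, Rplp1 (0.0158 and 0.0205) and Rplp0 (0.0799 and 0.0852) in AOM/DSS against control, and Rplp1 (0.0322 and 0.0362) and Rps29 (0.0120 and 0.00995) in AOM/DSS against DSS. Under spike-in scaling they were Rpl21 (0.17), Rplp1 (0.44), Rps27 (0.49) and Rplp0 (0.52) in AOM/DSS against control, Rpl8 (0.11), Rpl13a (0.12) and Rpl36 (0.12) in AOM/DSS against AOM, and Rpl21 (0.15), Rps27 (0.31), Rplp1 (0.45), Rps29 (0.50) and Rps27a (0.51) in AOM/DSS against DSS.

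Leaving out 1 array at a time gave 0 to 3 higher and 4 to 22 lower (median -0.33 to -0.25) in AOM/DSS against control, 1 to 19 higher and 0 to 1 lower (0.19 to 0.45) in AOM against control, 9 to 54 lower (-0.81 to -0.55) in AOM/DSS against AOM, 0 to 1 higher and 1 to 50 lower (-0.71 to -0.39) in AOM/DSS against DSS, 0 to 5 higher (0.07 to 0.36) in DSS against control and none in DSS against AOM (-0.28 to 0.00287, the sign turning without DSS replicate 1). The share of all genes called in either direction was 22.7% to 38.7% in AOM/DSS against control and 10.6% to 38.4% in AOM against control. It was 17.4% to 42.5% in AOM/DSS against AOM and 17.4% to 46.7% in AOM/DSS against DSS. For DSS it was 0.0467% to 16.9% against control and 0% to 1.79% against AOM. The F test called 4 to 55 genes of the family, with its share of all genes not given.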

Other observations

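Of 29 initiation factor genes, 5 rose and 2 fell in AOM/DSS against control (median 0.21), where 17.2% of all genes were called higher and 17.4% lower, so the share called higher was near that of all genes. In the same comparison 12 rose and none fell after quantile normalization (median 0.46). Eif3a was higher by 1.34 ± 0.26 and Eif2s1 by 1.17 ± 0.28 (SE; adjusted p = 0.00357 and 0.00845, limma), and Eif6, which keeps free large subunits from joining small ones, was lower at -1.13 (adjusted p = 0.0226; 0.0578 after quantile normalization). In AOM against control 8 rose and 3 fell (8 and 4 after quantile normalization), where 14.7% of all genes were called higher, among them Eif5a at 1.23 and Eif2s2 at -1.63. Of 6 other TOP mRNA genes none was called in AOM/DSS against control by 75th percentile scaling, and 3 rose after quantile normalization.

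Of 14 genes of mTOR and Myc regulation, 3 rose and 5 fell in AOM/DSS against control, and 6 rose and 5 fell after quantile normalization, where 17.2% of all genes were called higher and 17.4% lower by 75th percentile scaling. Myc, a transcription factor that drives ribosome production, was higher in AOM/DSS by 1.57 ± 0.37 (adjusted p = 0.00869, limma) and in AOM by 1.61 ± 0.37 (adjusted p = 0.0136) than in control. Mycn was higher by 2.44 in AOM/DSS and 2.62 in AOM, and Max, the partner Myc binds DNA with, was lower in AOM/DSS at -1.82 (adjusted p = 0.000833). These comparisons share the 3 control arrays.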
